A study of Mus musculus with 16 samples.

Results

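Calcium and phosphate absorption was followed through 7 genes of the ileum: the vitamin D receptor *Vdr*, the calcium genes *Trpv6*, *S100g* and *Atp2b1*, and the phosphate transporters *Slc34a2*, *Slc20a1* and *Slc20a2*. They were chosen by name for their known roles, with earlier results of these data known, and are 7 of the 21965 genes of the count table. The filter on low counts kept 6 of the 7, among 13811 genes in all, and removed *Trpv6*. Male C57BL/6 mice were wild type (WT) or heterozygous for *fat-1*, a *C. elegans* n3 fatty acid desaturase that is expressed in all tissues and converts n6 to n3 fatty acids; the sample descriptions write this genotype as Fat1+/-, which does not refer to the mouse cadherin gene of that name. WT and *fat-1* mice were littermates and 8 to 10 weeks old at the start of feeding. All mice received a Lieber-DeCarli liquid diet for 6 weeks, either with ethanol (EtOH) that was raised in steps to 6% (v/v) for the last 3 weeks, or pair-fed (PF) with maltose dextrin in place of the EtOH calories. RNA of an approximately 1.5 cm segment of terminal ileum was sequenced, 1 library for each animal, from 4 WT and 4 *fat-1* mice on the PF diet and from 3 WT and 5 *fat-1* mice on the EtOH diet. The transgene itself was not analysed here.

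Calcium crosses the intestinal epithelium through cells and between them. In the cellular route, TRPV6 is the apical entry channel, calbindin-D9k (*S100g*) buffers and carries calcium in the cytosol, and the plasma membrane pump PMCA1 (*Atp2b1*) extrudes it at the basolateral side. The vitamin D receptor is the nuclear receptor through which the active hormone raises this route, and *S100g* and *Trpv6* are among its classical intestinal targets, with high expression in the duodenum. NaPi-IIb (*Slc34a2*) is the main apical sodium-phosphate cotransporter of the gut and in mice is most abundant in the ileum, while PiT-1 (*Slc20a1*) and PiT-2 (*Slc20a2*) are sodium-phosphate cotransporters found in most tissues.

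Between 8422645 and 11438539 reads were counted per mouse. Levels are given as CPM, the counts scaled to a common total, with 3 counts at 0.246 to 0.421 CPM, over the library size adjusted by trimmed mean of M-values (TMM). Groups were compared with the quasi-likelihood test of edgeR in one fit of all 16 libraries, and a gene is called a differentially expressed gene (DEG) at a Benjamini-Hochberg adjusted p of 0.05 or less over all 13811 genes. Each change is a log2 fold change with its standard error (SE). PF mice have library numbers 1 to 8 and EtOH mice 9 to 16, and this order cannot be told apart from the diet. In bulk tissue, fewer cells of a type and less RNA per cell cannot be told apart either.

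Several libraries differed in markers of gut region, which bears on genes that vary along the intestine. The summed level of 7 large intestine markers was 11800 and 12800 CPM in *fat-1* EtOH mice 3 and 4 and 4740 CPM in WT EtOH mouse 2, against 98.5 to 445 CPM in the other 13 libraries. Most of it was *Car1*, which reached 12200 CPM, whereas the distal genes *Hoxb13* and *Hoxd13* had at most 2 counts and 1 count in any library. The sum of 10 proximal small intestine markers was 65600 and 66600 CPM in *fat-1* PF mice 2 and 4, 8050 to 24700 CPM in the other PF mice, 3560 to 5480 CPM in 6 EtOH mice, and 245 and 263 CPM in *fat-1* EtOH mice 3 and 4. The 6 ileal bile acid genes, among them *Fabp6* and *Slc10a2*, summed to 491 and 439 CPM in *fat-1* PF mice 2 and 4, to 1080 and 2060 CPM in *fat-1* EtOH mice 3 and 4, and to 2500 to 8300 CPM in the remaining 12 libraries. In *fat-1* PF mice the lowest *Fabp6* level was 3.31 CPM, so that a defining ileal marker was nearly absent in that mouse. The median of the group was 973 CPM and its highest level 3890 CPM. Smooth muscle markers, 5 genes, summed to 836 to 1330 CPM in PF and 1710 to 3660 CPM in EtOH mice without overlap.

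All 7 members were annotated on the mouse genome (GRCm38) as protein-coding genes. *Vdr* (ENSMUSG00000022479) lies at chr15:97854425-97910630, *Trpv6* (ENSMUSG00000029868) at chr6:41620624-41636405 and *S100g* (ENSMUSG00000040808) at chrX:162961992-162964599, each on the minus strand. *Atp2b1* (ENSMUSG00000019943) lies at chr10:98914406-99026143, *Slc34a2* (ENSMUSG00000029188) at chr5:53038081-53071664, *Slc20a1* (ENSMUSG00000027397) at chr2:129198764-129211616 and *Slc20a2* (ENSMUSG00000037656) at chr8:22476788-22569612, each on the plus strand. The exons of *Slc20a1* overlap 2 antisense genes that are not in the count table, so that 8.04% of its 75-base windows are shared. Those of *Slc20a2* overlap the antisense gene *Smim19*, which is in the count table, in 0.333% of windows. *Atp2b1* overlaps no other exons but shares 0.474% of its windows with other genes, among them *Tyms* and *Zdhhc21*. Whether the counting used the read strand is not given in the sources used here.

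The length-scaled levels of the members in WT PF mice, in CPM per kb of exon, put the apical phosphate transporter and the receptor at the top. They were 84.8 ± 15.4 for *Slc34a2*, 60.2 ± 2.04 for *Vdr* and 20.1 ± 5.55 for *Atp2b1* (SD, n = 4). Below these were *Slc20a1* at 9.33 ± 2.39, *S100g* at 7.02 ± 2.99 and *Slc20a2* at 4.04 ± 0.257 CPM per kb, and *Trpv6* had no count. This order held in each of the 4 mice between neighbours apart from *S100g* and *Slc20a2*, where 3 of 4 mice had more *S100g*. The spreads of *Slc20a1* and *S100g* also overlapped. In *fat-1* PF mice the level of *Slc34a2* was 39.7 ± 49.8 CPM per kb (SD, n = 4), and its place relative to *Atp2b1* differed between mice, with *Slc34a2* above it in 2 of 4.

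The 250 bases upstream of the RefSeq transcription start are shown for the members with a higher level in EtOH mice over both genotypes (*S100g*, *Atp2b1* and *Slc20a1*) and for the barely detected channel gene *Trpv6* to set their base composition and motifs side by side. The table of RefSeq sequences used here matched 6 of the 7 members on GRCm38.p6, in 8 windows, all but *Slc20a2*. Letters in capitals mark AGGTCA or AGTTCA, the half-sites bound by nuclear receptors such as the vitamin D receptor, or CACGTG, the E-box, each on either strand; TATAAA was searched too. All sequences are written 5′ to 3′ on the strand of the gene.
*S100g*, chrX:162964600-162964849, minus strand: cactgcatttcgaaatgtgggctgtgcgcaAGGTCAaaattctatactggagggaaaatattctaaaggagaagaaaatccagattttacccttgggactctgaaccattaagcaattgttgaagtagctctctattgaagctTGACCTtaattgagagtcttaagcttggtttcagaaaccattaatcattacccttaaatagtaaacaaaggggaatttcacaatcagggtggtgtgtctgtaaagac
*Trpv6*, chr6:41636406-41636655, minus strand: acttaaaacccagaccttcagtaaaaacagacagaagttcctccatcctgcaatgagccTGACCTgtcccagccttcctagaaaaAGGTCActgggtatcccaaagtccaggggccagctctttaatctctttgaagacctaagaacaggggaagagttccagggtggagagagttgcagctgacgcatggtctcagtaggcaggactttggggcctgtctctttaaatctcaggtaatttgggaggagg
*Slc20a1*, chr2:129198523-129198772, plus strand: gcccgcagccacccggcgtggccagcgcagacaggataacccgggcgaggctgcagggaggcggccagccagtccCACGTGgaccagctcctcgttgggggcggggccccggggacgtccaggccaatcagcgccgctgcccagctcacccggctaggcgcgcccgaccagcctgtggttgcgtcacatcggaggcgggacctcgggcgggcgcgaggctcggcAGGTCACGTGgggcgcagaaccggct
*Atp2b1*, chr10:98914392-98914641, plus strand: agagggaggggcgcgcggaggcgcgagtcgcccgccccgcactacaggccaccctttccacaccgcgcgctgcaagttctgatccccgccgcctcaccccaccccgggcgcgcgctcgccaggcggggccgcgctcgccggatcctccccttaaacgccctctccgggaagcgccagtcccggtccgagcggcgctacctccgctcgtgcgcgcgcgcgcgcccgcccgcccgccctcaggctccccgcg

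The calcium entry and buffer genes have promoters of low or middling GC content, 38.4% for *S100g* and 49.6% for *Trpv6* against a median of 52.4% over 32851 mouse promoter windows, whereas the windows shown for *Slc20a1* and *Atp2b1* hold 75.2% and 78.4%. Both have another annotated start, whose window holds 50.8% for *Slc20a1*, near the median, and 80.8% for *Atp2b1*. Both *S100g* and *Trpv6* carry AGGTCA once on each strand. In *S100g* the matches end 215 bases (sense) and 102 bases (antisense) before the start, and in *Trpv6* they end 160 bases (sense) and 186 bases (antisense) before it. The *Slc20a1* window shown holds CACGTG from 175 and from 22 bases before the start, the latter overlapping an AGGTCA from 26 bases before it. The other *Slc20a1* window holds AGGTCA once, antisense, from 75 bases before its start, and both *Atp2b1* windows hold none of these letters. AGTTCA occurred once, in the *Vdr* window, on the antisense strand. Of all windows, 14% held AGGTCA, 11.8% AGTTCA, 6.02% CACGTG and 12.4% TATAAA, which no member window held. The direct repeats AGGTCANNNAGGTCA, AGGTCANNNAGTTCA, AGTTCANNNAGGTCA and AGTTCANNNAGTTCA, the spacing to which the vitamin D receptor binds with its partner, were in no member window and in 0.0122% of all windows. These are matches of letters only and say nothing of binding.

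With EtOH, the basolateral calcium pump gene rose. *Atp2b1* was at 246, 229, 338 and 410 CPM in WT PF mice and at 541, 551 and 587 CPM in WT EtOH mice. In *fat-1* mice it was at 297, 135, 275 and 127 CPM in PF and at 582, 678, 319, 323 and 392 CPM in EtOH. Within each genotype every EtOH mouse was above every PF mouse, but the share of all genes so separated was not counted. Averaged over genotypes *Atp2b1* was 2.01-fold higher in EtOH (log2 fold change 1.00, SE 0.23, 95% interval 0.52 to 1.49, edgeR adjusted p = 0.00409). In *fat-1* mice the change was 1.14 (SE 0.31, adjusted p = 0.0103) and in WT mice it was 0.87 (SE 0.34, adjusted p = 0.276), which did not pass the threshold. The difference between these changes, tested as an interaction, was 0.27 (95% interval -0.70 to 1.23, adjusted p = 0.843).

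The pump gene was a DEG in the averaged comparison also without the libraries that stood apart in region markers. Its change was 1.15 (adjusted p = 0.00488) without the 3 EtOH libraries with high large intestine markers, 0.78 (adjusted p = 0.021) without the 2 *fat-1* PF libraries with high proximal markers, and 0.92 (adjusted p = 0.00602) without all 5. These fits do not remove differences of region, since the remaining mice had proximal sums of 8050 to 24700 CPM in PF and 3560 to 5480 CPM in EtOH. Within each diet the 2 lowest *Atp2b1* levels were those of the 2 mice with the lowest ileal bile acid sums, *fat-1* PF mice 2 and 4 and *fat-1* EtOH mice 3 and 4. In *fat-1* mice alone the call was lost without the 2 *fat-1* PF libraries, mice 2 and 4, which had the lowest *Atp2b1* levels (0.69, adjusted p = 0.145), and stood at 0.96 (adjusted p = 0.0478) without all 5. All 5 smooth muscle markers had a higher mean level in EtOH mice of both genotypes. The 4 goblet cell markers summed to 6140 to 9190 CPM in PF and 8510 to 13800 CPM in EtOH mice, with *Muc2* and *Clca1* higher on average in both genotypes, *Tff3* lower in both (1360 against 1190 CPM in WT and 1450 against 1010 CPM in *fat-1* mice), and *Fcgbp* lower in *fat-1* mice (3480 against 3000 CPM). The part of gut region and of these cell types in the rise of *Atp2b1*, which many cell types express, was not tested.

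**Figure D1:**
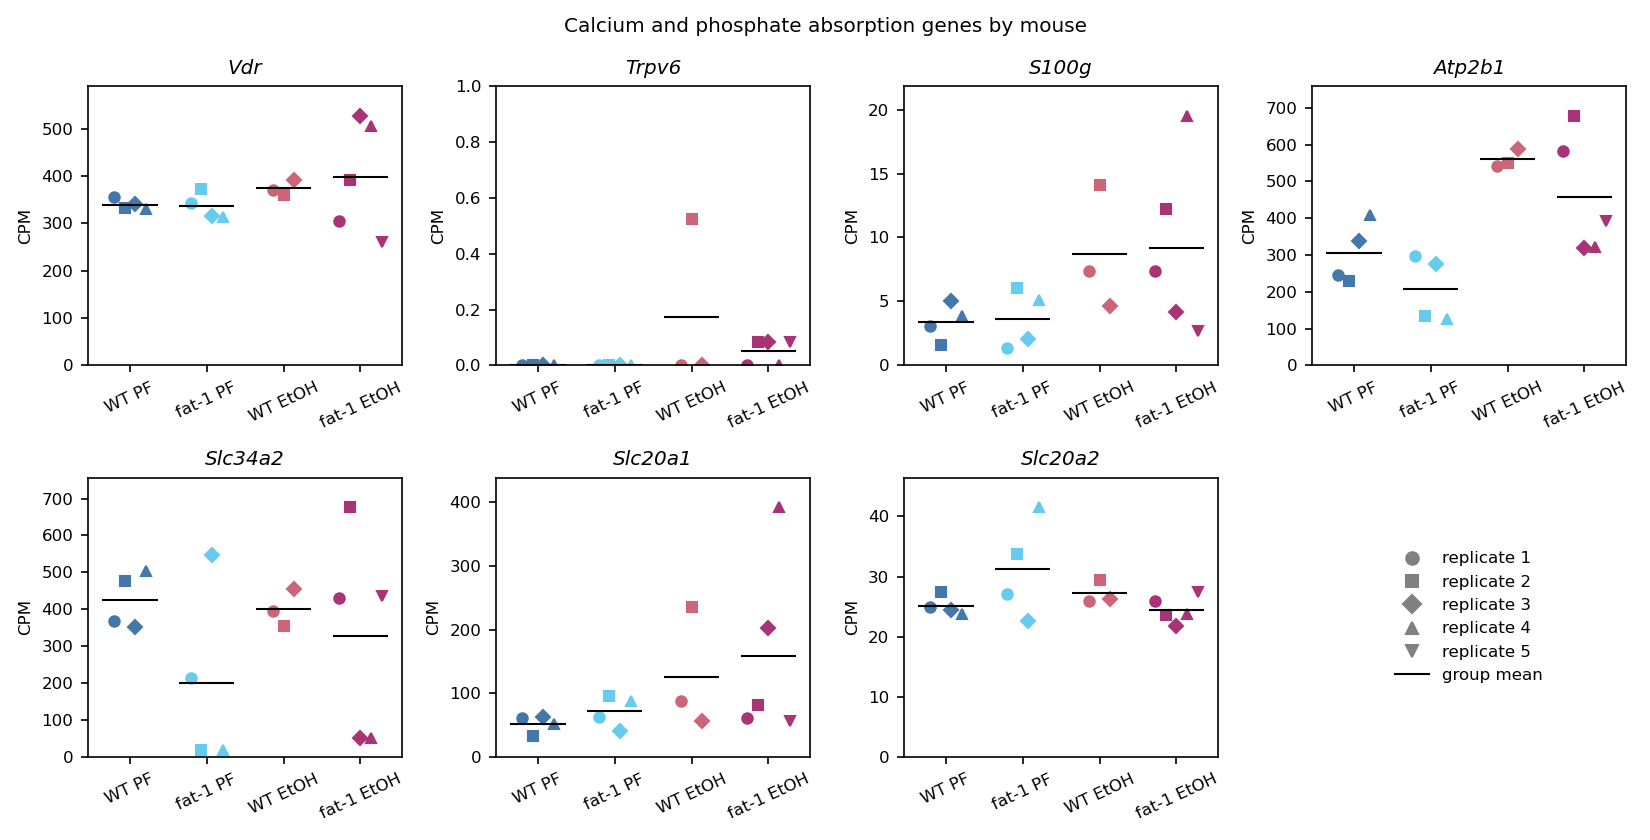
CPM of each member in each mouse (linear axis from 0), by group, with a marker shape for each replicate and a line at the group mean. *Atp2b1* lies higher in all EtOH mice than in PF mice of the same genotype, *Slc34a2* is at 17.8 to 50.7 CPM in 4 *fat-1* mice, and *Trpv6* stays at or near 0.

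The gene of the cytosolic calcium buffer was low but detected in every mouse. *S100g* was at 3.06, 1.58, 5.00 and 3.85 CPM in WT PF mice and at 1.38, 6.04, 2.05 and 5.15 CPM in *fat-1* PF mice. With EtOH it was at 7.34, 14.1 and 4.62 CPM in WT and at 7.41, 12.2, 4.18, 19.5 and 2.65 CPM in *fat-1* mice. The diets overlapped, since 3 EtOH mice had levels within the PF range, while the other 5 were above every PF mouse. The highest PF levels, 6.04 and 5.15 CPM, were those of *fat-1* PF mice 2 and 4, with high proximal markers. The highest EtOH levels, 19.5 and 14.1 CPM, were those of *fat-1* EtOH mouse 4 and WT EtOH mouse 2, with high large intestine markers. *fat-1* EtOH mouse 3, with such markers too, was at 4.18 CPM. Behind these values were 13 to 45 counts per PF library and 31 to 219 per EtOH library. *S100g* was 2.54-fold higher averaged over genotypes (log2 fold change 1.35, SE 0.44, edgeR adjusted p = 0.0295), with values of 1.35 in WT (SE 0.66, adjusted p = 0.367) and 1.34 in *fat-1* mice (SE 0.60, adjusted p = 0.0919), neither of which passed the threshold. With 1 mouse left out these ranged from 0.82 to 1.66 in WT and from 0.88 to 1.70 in *fat-1* mice. The value in *fat-1* mice passed the threshold without *fat-1* EtOH mouse 5 (1.59, adjusted p = 0.0386). The call in the averaged comparison did not hold without any one of WT PF mice 1 and 2, *fat-1* PF mouse 3 or WT EtOH mouse 2 (1.08 to 1.33, adjusted p = 0.0518 to 0.0892). It was also lost without the 3 EtOH libraries with high large intestine markers (0.95, adjusted p = 0.102) and held without the 2 *fat-1* PF libraries (1.89, adjusted p = 0.0212) and without all 5 (1.48, adjusted p = 0.0278). The values by genotype moved apart in these fits, to 1.36 in WT and 2.43 in *fat-1* mice without the 2 and to 0.83 and 2.14 without all 5.

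The apical entry channel was at the limit of detection. *Trpv6* had no count in any of the 8 PF libraries, which allows up to 0.312 to 0.421 CPM at 3 counts. In EtOH mice it had 8 counts in all, of which 5 were in WT EtOH mouse 2 (0.525 CPM, 95% Poisson interval 0.17 to 1.22 CPM) and 1 each in *fat-1* EtOH mice 2, 3 and 5. The interval and the limit cover counting error only. WT EtOH mouse 2 is 1 of the 3 with high large intestine markers. The filter on low counts kept the gene out of the main test. With the filter of 1 count in any library, the edgeR adjusted p was 0.119 in the averaged comparison (unadjusted p = 0.0447), 0.466 in WT and 0.377 in *fat-1* mice.

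*Vdr* was steady in most mice. It was at 356, 332, 341 and 330 CPM in WT PF, at 343, 372, 316 and 313 CPM in *fat-1* PF and at 370, 361 and 391 CPM in WT EtOH mice. In WT mice the diets did not overlap, at a change of 0.14 (edgeR adjusted p = 0.788). In *fat-1* EtOH mice it was at 304, 391, 527, 506 and 260 CPM, a spread that included both the lowest and the highest levels of all 16 mice. The highest were mice 3 and 4, those with high large intestine markers. The lowest was mouse 5, in which 5 B cell follicle markers summed to 384 CPM, against 1.16 to 76.1 CPM in all other libraries. The part of such cells was not tested. The averaged change was 0.19 (SE 0.13, 95% interval -0.09 to 0.47, edgeR adjusted p = 0.265), and it was 0.06 (adjusted p = 0.681) without the 3 EtOH libraries with high large intestine markers.

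The main apical phosphate transporter gene differed far more between mice than between groups. *Slc34a2* was at 367, 478, 351 and 505 CPM in WT PF mice and at 395, 354 and 454 CPM in WT EtOH mice. In *fat-1* mice it was at 213, 17.8, 547 and 18.4 CPM in PF and at 431, 676, 50.4, 50.7 and 435 CPM in EtOH. The 4 low values were those of *fat-1* PF mice 2 and 4 and *fat-1* EtOH mice 3 and 4, the same 4 mice that had the lowest sums of ileal bile acid markers. In the other 12 mice *Slc34a2* was between 213 and 676 CPM.

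With edgeR no comparison of *Slc34a2* passed the threshold. Its change in *fat-1* mice was 0.72 (SE 0.91, adjusted p = 0.55) with edgeR and 2.64 (adjusted p = 0.0409) with limma voom, which gives less weight to libraries that vary more. With edgeR it ranged, with 1 mouse left out, from 0.28 (without *fat-1* EtOH mouse 2) to 2.00 (without *fat-1* PF mouse 3), and was 1.39 (adjusted p = 0.262) without the 3 EtOH libraries, -0.20 (adjusted p = 0.877) without the 2 *fat-1* PF libraries and 0.45 (adjusted p = 0.399) without all 5. The averaged EtOH change was 0.32 (SE 0.68, 95% interval -1.14 to 1.78, edgeR adjusted p = 0.739), and it was 0.23 (adjusted p = 0.503) without the 5 libraries. *Slc34a2* in *fat-1* PF against WT PF mice was at -1.10 (SE 0.96, adjusted p = 0.693) with all libraries and at -0.17 (adjusted p = 1) without *fat-1* PF mice 2 and 4. The part of gut region in the low values was not tested.

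**Figure D2:**
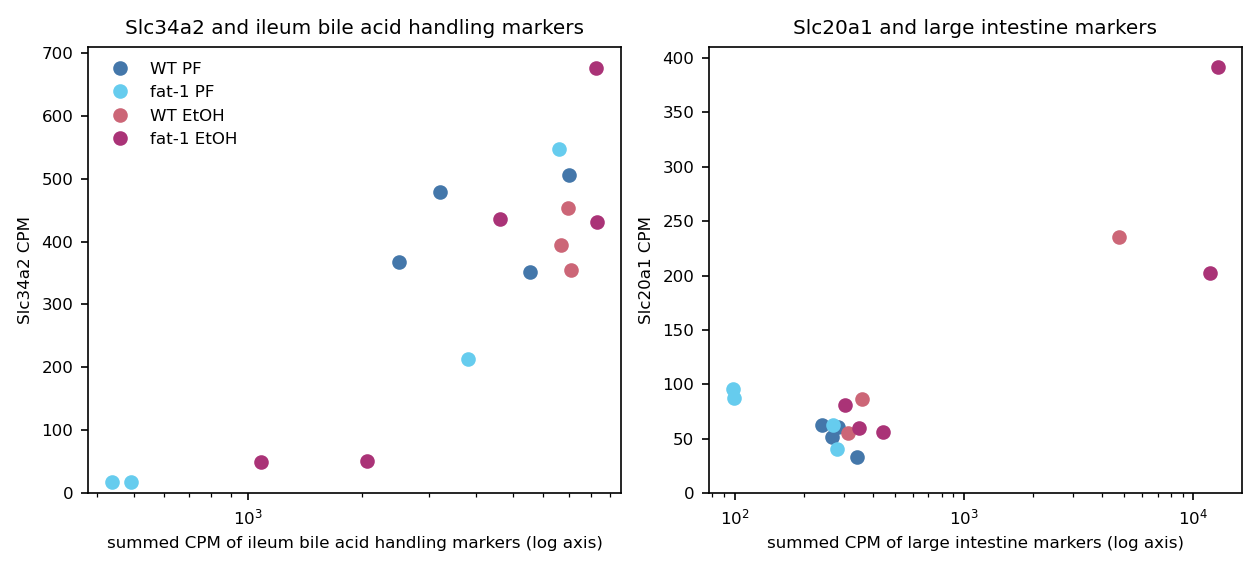
Left, *Slc34a2* CPM (linear axis) against the summed CPM of 6 ileal bile acid markers (log axis), and right, *Slc20a1* CPM against the summed CPM of 7 large intestine markers (log axis), 1 point per mouse coloured by group. The 4 mice with *Slc34a2* at 17.8 to 50.7 CPM have the 4 lowest ileal sums, and the 3 mice with *Slc20a1* at 202 CPM or more have the 3 highest large intestine sums.

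*Slc20a1* was higher in EtOH mice in the averaged comparison, and 3 libraries carried most of the difference. The gene was at 61.0, 33.4, 62.4 and 51.5 CPM in WT PF mice and at 63.2, 95.6, 41.0 and 87.3 CPM in *fat-1* PF mice. With EtOH it was at 87.1, 235 and 55.7 CPM in WT and at 60.5, 81.0, 202, 392 and 56.0 CPM in *fat-1* mice. The levels of 202 to 392 CPM were those of the 3 mice with high large intestine markers, and the other 5 EtOH mice were all within the PF range of 33.4 to 95.6 CPM. The top of that range, 95.6 and 87.3 CPM, came from *fat-1* PF mice 2 and 4, those with high proximal markers. The other 6 PF mice reached 63.2 CPM, below WT EtOH mouse 1 and *fat-1* EtOH mouse 2. Averaged over genotypes the change was 1.21 (SE 0.43, 2.31-fold, edgeR adjusted p = 0.0413), with 1.27 in WT (adjusted p = 0.382) and 1.14 in *fat-1* mice (adjusted p = 0.132). Without the 3 libraries it was 0.18 (adjusted p = 0.543), without the 2 *fat-1* PF libraries 1.44 (adjusted p = 0.0635), and without all 5 that stood apart 0.41 (adjusted p = 0.174). Leaving out single mice ended the call in 11 of 16 cases, namely any WT PF mouse, *fat-1* PF mice 1, 3 and 4, WT EtOH mice 1 and 2, and *fat-1* EtOH mice 3 and 4 (0.80 to 1.31, adjusted p = 0.0507 to 0.159).

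*Slc20a2* was the least variable phosphate transporter gene. It was at 25, 27.4, 24.4 and 23.7 CPM in WT PF and at 25.9, 29.5 and 26.3 CPM in WT EtOH mice. In *fat-1* mice it was at 27.1, 33.7, 22.6 and 41.5 CPM in PF and at 25.9, 23.6, 21.7, 23.7 and 27.4 CPM in EtOH. Its highest levels were those of *fat-1* PF mice 2 and 4, which had the high proximal markers and low *Slc34a2*. The EtOH change in *fat-1* mice was -0.35 (SE 0.14, edgeR adjusted p = 0.0614) and was at -0.02 (adjusted p = 0.922) without those 2 mice. It passed the threshold without *fat-1* PF mouse 1 (-0.40, adjusted p = 0.0495) or mouse 3 (-0.47, adjusted p = 0.0118). In WT mice it was 0.11 (adjusted p = 0.784), and the interaction of -0.47 had an adjusted p of 0.595.

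**Figure D3:**
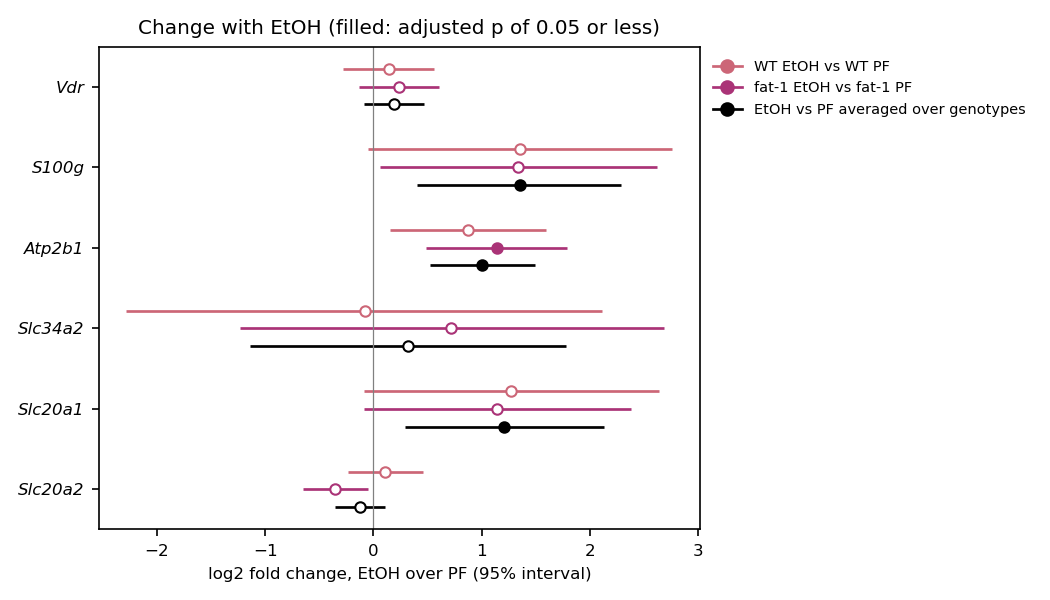
Log2 fold change of EtOH over PF with its 95% interval for the 6 tested members in WT mice, in *fat-1* mice and averaged over genotypes; filled points are DEGs. *Atp2b1* is filled in *fat-1* mice and in the average, and *S100g* and *Slc20a1* in the average alone.

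Counted as a group, 1 of the 6 tested members was a DEG between *fat-1* EtOH and *fat-1* PF mice, higher, where 37.4% of all genes tested were DEGs (18.7% higher and 18.8% lower). In the comparison averaged over genotypes, which uses the same mice as the single-genotype ones, 3 of 6 were DEGs, all higher, against 35.9% of all genes (18.3% higher and 17.6% lower). The median change of the 6 was 0.66 in the average and that of all genes 0.04. Between WT EtOH and WT PF mice edgeR called 0 of 6, where 0.0796% of all genes were DEGs. At an unadjusted p under 0.05 were 1 of 6 members and 1953 of all 13811 genes. Limma voom called 1 of 6 there, *Atp2b1* (0.96, adjusted p = 0.0128), with 20.7% of all genes. Without the 3 EtOH libraries with high large intestine markers the averaged comparison called 1 of 6, with 32.9% of all genes, and without all 5 it called 2 of 6, with 27.6%.

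The genotype comparisons called no member. In PF mice, comparing genotypes, 0% of all genes and 0 of 6 members were DEGs with edgeR, with 0 members at an unadjusted p under 0.05. In EtOH mice, comparing genotypes, 0.00724% of all genes and 0 of 6 members were, again with 0 members at an unadjusted p under 0.05. The interaction gave 0% of all genes and 0 of 6 members, with 1 member, *Slc20a2*, at an unadjusted p of 0.0449. Of all 13811 genes, 1141 had an unadjusted p under 0.05 for it. DESeq2 and limma voom called 0 members in these 3 comparisons as well, with 1.37% and 0.217% of all genes on the PF diet, 0.0362% and 0.00724% on the EtOH diet, and 0% for the interaction with both. The intervals were wide, for example -1.23 to 0.12 for *Atp2b1* and -1.27 to 1.47 for *S100g* on the PF diet.

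**Figure D4:**
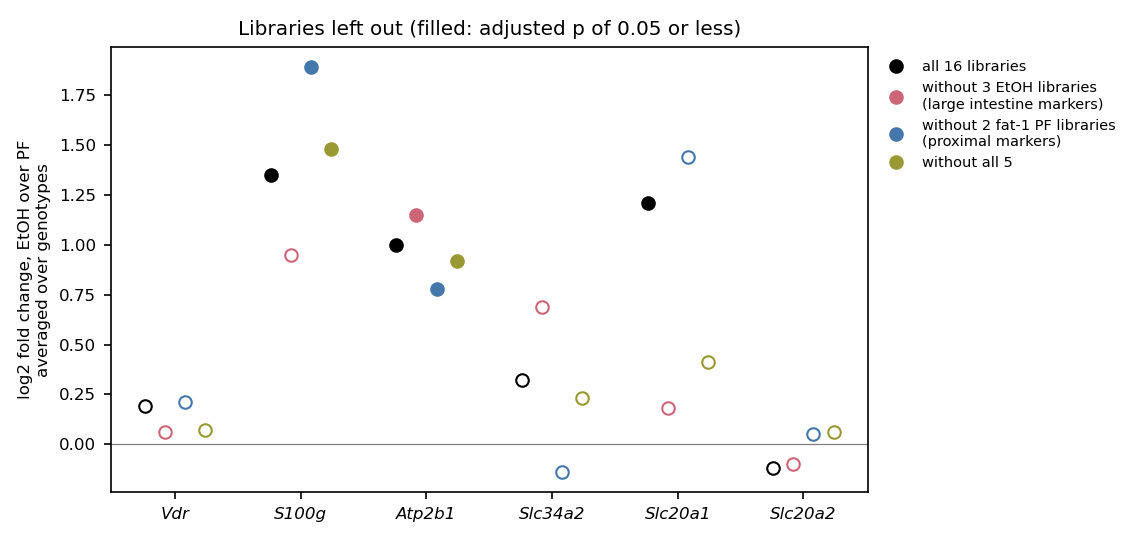
Log2 fold change of EtOH over PF, averaged over genotypes, of the 6 tested members with all 16 libraries and without the 3 EtOH libraries with high large intestine markers, the 2 *fat-1* PF libraries with high proximal markers, or all 5; filled points are DEGs. *Atp2b1* stays between 0.78 and 1.15 and filled throughout, while *Slc20a1* drops from 1.21 to 0.18 without the 3 EtOH libraries.

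A list of 48 other genes of calcium, phosphate and vitamin D handling held 38 that were tested. Between *fat-1* EtOH and *fat-1* PF mice 10 were higher and 6 lower, 16 of 38 where 37.4% of all genes were DEGs, and the median change was 0.11 against 0.05 for all genes. The largest rise was that of the sodium-calcium exchanger gene *Slc8a1*, which in *fat-1* mice was at 1.35 to 2.11 CPM (median 1.77) without EtOH and at 4.47 to 40.8 CPM (median 4.85) with it (log2 fold change 3.32, SE 0.73, edgeR adjusted p = 0.00374). Among other pumps, the plasma membrane pump *Atp2b4* rose by 1.44 (SE 0.21, adjusted p = 0.000345), from 19.1 to 27 CPM to 43.1 to 87.5 CPM, and the endoplasmic reticulum pump *Atp2a3* by 1.44 (SE 0.29, adjusted p = 0.00236). *Calb2*, a calcium-binding protein of neurons, rose by 1.76 (SE 0.55, adjusted p = 0.0231). Without the 3 EtOH libraries with high large intestine markers the change was 1.44 (adjusted p = 0.00246) for *Slc8a1* and 0.31 (adjusted p = 0.397) for *Calb2*. *Slc8a1* and *Atp2b4* are also expressed in muscle, and the smooth muscle markers were higher in the same mice; their part was not tested.

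Of 3 claudin genes in the list, 1 rose and 1 fell in *fat-1* mice. *Cldn2*, the claudin of a pore for cations that lets calcium pass, rose by 1.46 (SE 0.40, adjusted p = 0.0112), from a range of 42.8 to 203 CPM in PF to 253 to 441 CPM in EtOH mice of that genotype. *Cldn15*, the other pore-forming claudin of the small intestine, fell by 1.73 (SE 0.25, adjusted p = 0.000375), from 622 to 1250 CPM to 180 to 344 CPM. In neither case did these *fat-1* groups overlap, but the share of all genes without overlap was not counted. *Cldn12*, named here after its values were seen, was at 0.13 (SE 0.11, adjusted p = 0.347).

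Genes of the apical surface in the list gave both calls and values short of the threshold. The alkaline phosphatases *Akp3* and *Alpi*, which release phosphate at the apical surface, fell by 5.37 (SE 0.92, adjusted p = 0.000826) and 1.93 (SE 0.50, adjusted p = 0.00886). In *fat-1* mice *Akp3* was at 1.09 to 23.6 CPM on the PF and at 0 to 0.765 CPM on the EtOH diet, the latter from 0 to 9 counts. In WT mice *Akp3* had a median of 0.76 CPM on PF and at most 0.588 CPM on EtOH. The gene was thus kept by the filter on low counts mainly through *fat-1* PF mice, where it was high. Its call depends on that, and a fall to counts near 0 has no exact size. The apical scaffold gene *Slc9a3r1* fell by 1.19 (SE 0.35, adjusted p = 0.0167), from 1820 to 2110 CPM to 336 to 1460 CPM. Other apical genes, named here after their values were seen, were at -1.32 (*Pdzk1*, adjusted p = 0.309), -0.90 (*Slc9a3*, adjusted p = 0.353), -1.62 (*Slc34a3*, adjusted p = 0.149) and 0.52 (*Cubn*, adjusted p = 0.581). *Cyp27a1*, a sterol hydroxylase that can hydroxylate vitamin D, fell by 1.06 (SE 0.26, adjusted p = 0.00631). *Akp3* is a duodenal enzyme, and in *fat-1* mice 8 of the 10 proximal markers had a lower mean with EtOH, with *Slc40a1* higher (152 against 50.3 CPM) and *Cybrd1* at 3.27 against 3.17 CPM. The 4 markers of villus tip enterocytes were lower as well, with sums of 3090 to 5940 CPM in PF and 1200 to 2800 CPM in EtOH mice, without overlap. The part of either in these falls was not tested.

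Among genes of the vitamin D pathway, *Cyp24a1*, the hormone-degrading enzyme that the receptor induces, had at most 1 count in any library and was below the filter of the main test (averaged adjusted p = 0.282 with the filter of 1 count in any library). *Rxra*, the partner of the receptor, had 204 to 241 CPM in PF and 151 to 218 CPM in EtOH mice with the transgene (-0.22, SE 0.11, edgeR adjusted p = 0.11), and its averaged change was -0.21 (SE 0.08, adjusted p = 0.0516).

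Counts over this list depended on the libraries. In the averaged comparison 10 of 38 were higher and 6 lower, against a share of all genes of 35.9% (18.3% higher and 17.6% lower). With upper-quartile normalization the averaged comparison gave 16 higher and 5 lower, with 38.7% of all genes called. All genes moved upward with that setting too, with 3643 higher and 1699 lower and a median change of 0.14. In *fat-1* mice edgeR on only the groups compared gave 8 higher and 2 lower of 37, with 23.2%. In WT mice edgeR called 0 of 38, where 0.0796% of all genes were DEGs. At an unadjusted p under 0.05 were 3 of 38 and 1953 of all 13811 genes. There limma voom called 7 higher and 4 lower, with 20.7% of all genes, and edgeR on only the groups compared 4 higher and 5 lower of 36, with 8.32%. In the fit of all libraries all 10 genes named above with a DEG call had the same sign there, for example 0.75 for *Atp2b4* (adjusted p = 0.191) and -0.98 for *Cldn15* (adjusted p = 0.189). Without the 2 *fat-1* PF libraries with high proximal markers, 4 were higher and 2 lower between *fat-1* EtOH and *fat-1* PF mice, with 13.9% of all genes called. *Slc8a1* (3.29, adjusted p = 0.0557), *Atp2a3* (1.19, adjusted p = 0.0544) and *Slc9a3r1* (-1.14, adjusted p = 0.102) were among those no longer past the threshold. Without all 5 libraries, 5 were higher and 3 lower, with 11.9% called. *Atp2b4* (1.05, adjusted p = 0.0119) and *Cldn15* (-1.04, adjusted p = 0.0193) were DEGs in each of these fits. Calls were lost without all 5 for *Calb2* (0.07, adjusted p = 0.894), *Cldn2* (0.89, adjusted p = 0.168), *Akp3* (-3.08, adjusted p = 0.0525), *Alpi* (-0.69, adjusted p = 0.212) and *Cyp27a1* (-0.33, adjusted p = 0.162). *Slc8a1* was a DEG in that fit at 1.40 (adjusted p = 0.0195), against 3.32 with all libraries. For the genotypes on the PF diet, on the EtOH diet and for the interaction, edgeR called 0 of 38, with 3, 2 and 4 at an unadjusted p under 0.05, as were 1758, 671 and 1141 of all 13811 genes.

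**Figure D5:**
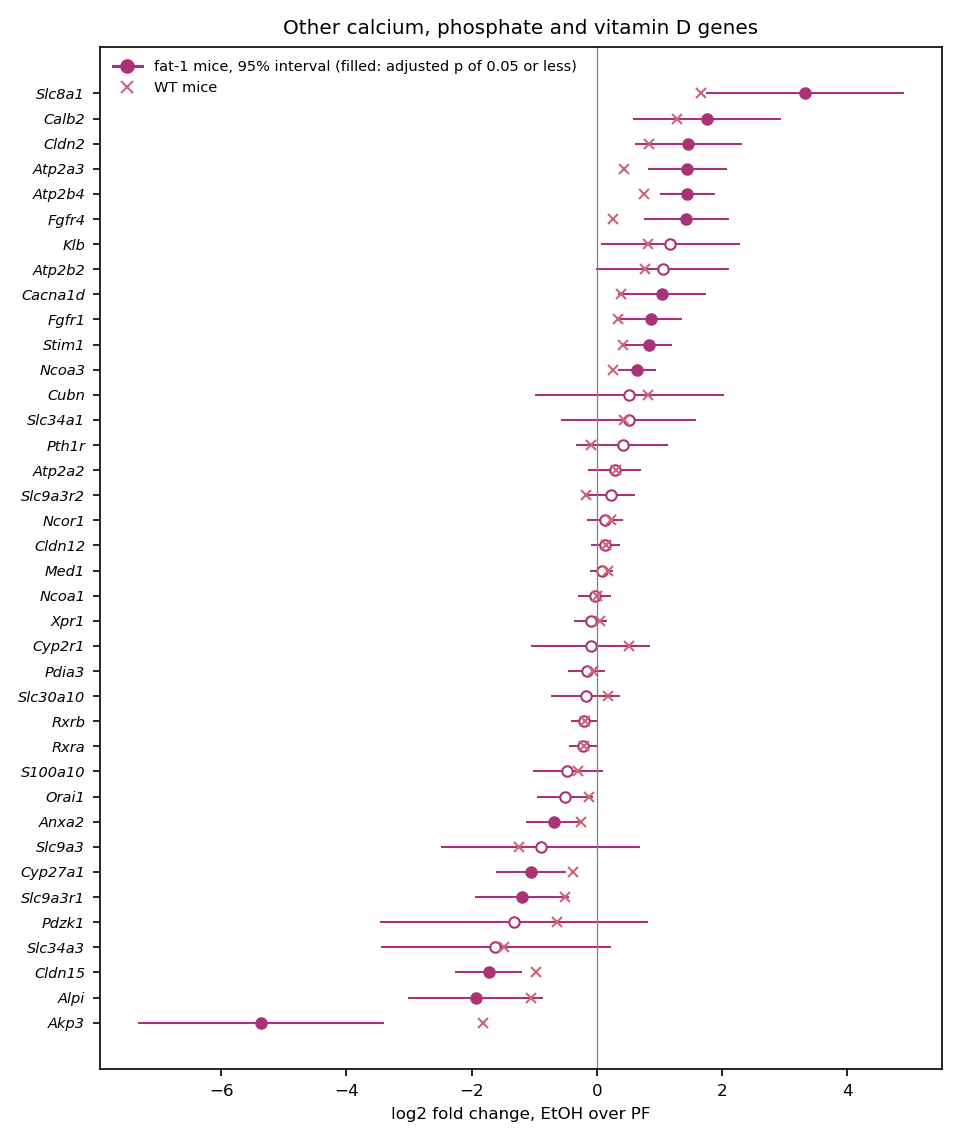
Log2 fold change of EtOH over PF for the 38 tested genes of the wider list, with points and 95% intervals for *fat-1* mice (filled where the gene was a DEG) and crosses for WT mice. The range runs from -5.37 for *Akp3*, which had 0 to 9 counts in *fat-1* EtOH mice, to 3.32 for *Slc8a1*. The WT values of the named DEGs lie on the same side of 0.

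Genes with the most similar pattern to each member over the 16 libraries were listed by Pearson's r of log2 CPM, as a description in which differences between groups and gut region enter r. *Atp2b1* was most like *Itpr2* (0.972), *Ptprd* (0.971) and *Clca1* (0.954), the last of which is 1 of the goblet cell markers. For *Slc34a2* these were *Slc25a48* (0.974), *Hoxc8* (0.967) and *Gsdme* (0.966), and for *Slc20a1* *Reg4* (0.929), *Ces1g* (0.922) and *Dgkh* (0.92). *Vdr* was closest to *Cmtm4* (0.92), *Snx13* (0.916) and *Tmem63b* (0.912). The lowest values belonged to *S100g*, with *Scg2* (0.825), *Pabpn1* (0.804) and *Vsig10l* (0.793), and to *Slc20a2*, with *Gpcpd1* (0.857), *Ip6k2* (0.85) and *Slc19a1* (0.845).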

How the data were processed

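Poly(A)-selected, stranded RNA libraries of 16 mice were sequenced. The authors aligned the reads to mm10 with tophat2 and deposited raw counts per Ensembl gene made with htseq, without normalization; the settings of the counting are not given in the sources used here. Symbols, positions and exon lengths came from GENCODE M21, in which 26 of 21965 genes were absent, and promoter sequences from RefSeq (GRCm38.p6).

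The counts were fitted in edgeR 4.0.16 under R 4.3.3 (filterByExpr, TMM, robust quasi-likelihood fit with 1 mean per group, Benjamini-Hochberg adjustment). Libraries held 8422645 to 11438539 counts. Pearson's r used log2 CPM with a prior count of 2. The replicate numbers were treated as names, since same-numbered mice of different groups were not alike (mean correlation of deviations -0.0225 over 21 pairs; mice with unlike numbers gave 0.00703 over 74 pairs).

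All 7 members are named, with *Cyp24a1*, *Rxra* and at most the 5 called genes with the largest rise and the 5 with the largest fall among 48 related genes in *fat-1* EtOH against *fat-1* PF mice, and the 3 most similar genes per member. Outside this rule, *Cldn12*, *Pdzk1*, *Slc9a3*, *Slc34a3* and *Cubn* were named after their values were seen. The members and lists were chosen with earlier results of these data known.

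Alternatives were DESeq2 1.42.0, upper-quartile normalization, limma 3.58.1 voom with sample quality weights, the size factors of DESeq2 in edgeR, a filter of 1 count in any or 10 counts in every library, only the groups compared, a replicate block, leaving out each mouse, and leaving out 3 EtOH libraries with high large intestine markers or 2 *fat-1* PF libraries with high proximal markers. Leaving out all 5 was chosen after seeing the data. Figures were drawn with matplotlib 3.10.9 under python 3.11.15.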

Additional observations from a re-analysis of the deposited data

How the results depend on the processing

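With all 16 libraries, 1 member was a DEG in *fat-1* mice, 0 in WT mice and 3 in the average. Limma voom called 2 in *fat-1* mice (26.8% of all genes), with *Slc34a2* at 2.64, and 1 in WT mice (20.7%). The replicate block, on numbers that do not pair the mice, gave 2 in *fat-1* mice (34.4%), with *S100g* at 1.55 (adjusted p = 0.0299), and changed no other call of a member. With only the groups compared, 1 was called in WT mice (8.32%), *Atp2b1* at 0.88 (adjusted p = 0.0312). Leaving out 1 mouse gave 1 to 2 calls in *fat-1* mice (28.5% to 39.4% of all genes), 1 to 3 in the average (26.9% to 38.1%) and 0 elsewhere. Without the 3 EtOH libraries with high large intestine markers, 1 was called in the average (32.9%); without the 2 *fat-1* PF libraries with high proximal markers, 0 were called in *fat-1* mice (13.9%). *Slc20a1* lost its averaged call with voom (0.50, adjusted p = 0.202) and with the filter of 1 count (adjusted p = 0.0571). The causes were not tested. Of the values of single members under the alternatives, 866 kept their side of the threshold and did not turn sign, 22 lost and 7 gained a call, and 65 turned sign, none of them called with either setting.

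The turned values are these. Without the 3 EtOH libraries, *Vdr* was at -0.05 and *Slc20a1* at -0.09 in *fat-1* mice, *Vdr* at -0.26, *Slc34a2* at 0.28 and *Slc20a1* at -0.12 between genotypes on EtOH, and the interaction at -0.21 for *Vdr* and 0.25 for *S100g*. Without the 2 *fat-1* PF libraries, *Slc34a2* was at -0.20 in *fat-1* mice and -0.14 in the average, *Slc20a2* at 0.05 in the average, *S100g* at -1.0, *Slc20a1* at -0.01 and *Slc20a2* at -0.02 between genotypes on PF, and the interaction at 1.07 for *S100g*, -0.19 for *Atp2b1*, -0.12 for *Slc34a2* and 0.32 for *Slc20a1*. Without all 5, *Vdr* was at -0.04 and *Slc20a2* at 0.06 in *fat-1* mice, *Slc34a2* at 0.01 in WT mice and *Slc20a2* at 0.06 in the average. Between genotypes on PF, *S100g* was then at -1.0, *Slc20a1* at -0.01 and *Slc20a2* at -0.03, and on EtOH *Vdr* at -0.26, *Slc34a2* at 0.27 and *Slc20a1* at -0.12, with interactions of -0.21 for *Vdr* and 1.31 for *S100g*. With voom, *Vdr* was at -0.10 and *Slc20a1* at -0.18 between genotypes on EtOH, with interactions of -0.07 for *Vdr* and 0.03 for *S100g*. The interaction of *S100g* was 0.10 with upper-quartile normalization, 0.01 with the filter of 10 counts and 0.18 with the replicate block, which put *S100g* at -0.14 between genotypes on PF. Leaving out 1 mouse gave -0.18 to 0.01 for *Slc34a2* in WT mice, -0.08 to 0.01 for *Vdr* and -0.26 to 0.38 for *S100g* between genotypes on PF, and -0.04 to 0.20 for *Vdr*, -0.39 to 0.61 for *S100g* and -0.34 to 1.14 for *Slc20a1* on EtOH. The interactions ranged from -0.01 to 0.23 for *Vdr*, -0.49 to 0.51 for *S100g* and -0.79 to 0.68 for *Slc20a1*.

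Upper-quartile normalization raised the median change of all genes in *fat-1* mice from 0.05 to 0.20 and gave 3906 higher and 1753 lower DEGs against 2578 and 2592. In WT mice 11 genes were called with edgeR, 257 with DESeq2, 2853 with voom and 1103 with only the groups compared. Depth limits *Trpv6* and *Cyp24a1*, and counts of 13 to 45 limit *S100g* in PF mice.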
